A study of Mus musculus with 23 samples.

Results

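The genes of the proteasome described here were the protein-coding genes of the deposited count table whose symbols start with Psma, Psmb, Psmc, Psmd or Psme followed by a digit, 45 of 54532 genes in all. Of these, 44 passed a filter on low counts and were among the 16545 genes tested; Psmb11, a catalytic subunit of the thymus, did not. The 5 interferon-inducible members, Psmb8, Psmb9, Psmb10, Psme1 and Psme2, were set against the other 40, of which 39 were tested. One name, Psmc3ip, was matched by its letters and encodes a cofactor of meiotic recombination rather than a subunit. The counts came from poly(A) RNA of heart cells that a magnetic sort had depleted of Ly6G-positive cells and then selected for CD11b, labelled as cardiac macrophages. All mice were C57BL/6 with both Smad7 alleles flanked by loxP sites (Smad7 fl/fl). MyS7KO mice also carried LyzM-Cre, in which the lysozyme M promoter drives Cre recombinase in myeloid cells, and S7fl/fl littermates had no Cre, so that Cre itself and the loss of Smad7 cannot be told apart. Hearts were taken at baseline, labelled as control, or 3 or 7 days after permanent occlusion of the left anterior descending coronary artery without reperfusion. MyS7KO groups held 3 libraries at baseline, 5 at day 3 and 4 at day 7, and S7fl/fl groups held 3, 5 and 3. Age is not given, and the labels leave unsaid whether libraries come from different hearts; p-values therefore rest on library-to-library spread, which may be technical.

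The proteasome degrades proteins tagged with ubiquitin. Its 20S core is a barrel of outer alpha rings (Psma genes) and inner beta rings (Psmb genes), of which Psmb5, Psmb6 and Psmb7 encode the catalytic subunits. The 19S cap recognises and unfolds the substrates through a base with ATPases (Psmc genes) and a lid (most Psmd genes). Under interferon gamma, Psmb8, Psmb9 and Psmb10 take the places of Psmb5, Psmb6 and Psmb7 to form the immunoproteasome, whose cleavage products favour loading onto MHC class I, and Psme1 and Psme2 form the PA28 activator that caps the core in place of 19S.

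The 23 libraries held 15479400 to 23884900 counts each, and within-group pairs of libraries differed by more than counting noise. Smad7, the targeted gene, had log2 differences between MyS7KO and S7fl/fl libraries of -0.57 ± 0.28 (SE) at baseline, -1.25 ± 0.23 at day 3 and -1.42 ± 0.26 at day 7, none of which passed the test (edgeR adjusted p = 0.999, 0.110 and 0.0702); which part of the gene is deleted is not in the labels. All 8 macrophage markers were detected in every group, with a summed level of 7685 to 18947 CPM, a count scaled to the effective size of its library, over the 23 libraries. Ly6g was at or near 0 (at most 0.13 CPM), while the 10 neutrophil markers that include it summed to 98.6 to 213 CPM. Xist and Y-linked genes gave the sex of the mice: 1 of 3 MyS7KO and 2 of 3 S7fl/fl libraries at baseline, 3 of 5 and 2 of 5 at day 3, and 4 of 4 and 0 of 3 at day 7 were female, so at day 7 sex and genotype cannot be told apart. Reads of both sexes, with over 2% from the minor one, appeared in 2 MyS7KO libraries and 1 S7fl/fl library of day 3. Named results whose call or sign changes without these libraries are given with both values.

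Promoters of 5 members are shown, 3 inducible genes and the constitutive catalytic subunits Psmb5 and Psmb6, each of which held a match to a motif named below. Those of the inducible genes Psmb10 and Psme2, which held no match, and of Psmb7 are not shown. Each runs 5′ to 3′ from 250 bases before to 30 bases after the start site, from RefSeq, build GRCm38.p6, which the submitters' processing notes also name. Capitals mark a gamma-activated site (TTCNNNGAA) in Psmb8, a CCAAT box (CCAAT) in Psmb9, the core of an interferon-stimulated response element (GAAANNGAA) in Psme1 and the core of an antioxidant response element (TGACNNNGC) in Psmb5 and Psmb6, each searched on both strands; the matches in Psmb9 and Psme1 lie on the opposite strand.
Psmb8 (chr17:34197945-34198224, plus strand): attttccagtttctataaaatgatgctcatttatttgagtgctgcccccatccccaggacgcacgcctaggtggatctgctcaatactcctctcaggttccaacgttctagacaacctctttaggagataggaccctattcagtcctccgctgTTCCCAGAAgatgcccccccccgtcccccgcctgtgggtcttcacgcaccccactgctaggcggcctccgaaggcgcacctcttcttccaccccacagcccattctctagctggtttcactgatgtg
Psmb9 (chr17:34187301-34187580, minus strand): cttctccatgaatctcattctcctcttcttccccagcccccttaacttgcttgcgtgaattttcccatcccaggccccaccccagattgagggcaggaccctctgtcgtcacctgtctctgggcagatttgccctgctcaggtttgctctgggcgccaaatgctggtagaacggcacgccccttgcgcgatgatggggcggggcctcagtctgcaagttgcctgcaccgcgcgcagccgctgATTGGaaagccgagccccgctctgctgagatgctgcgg
Psme1 (chr14:55578244-55578523, plus strand): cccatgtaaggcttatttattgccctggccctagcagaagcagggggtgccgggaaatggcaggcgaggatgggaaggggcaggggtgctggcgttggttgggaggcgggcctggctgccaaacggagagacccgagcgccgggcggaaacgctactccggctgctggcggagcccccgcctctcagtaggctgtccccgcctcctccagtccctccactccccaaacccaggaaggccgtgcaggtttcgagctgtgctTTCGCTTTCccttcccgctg
Psmb5 (chr14:54617966-54618245, minus strand): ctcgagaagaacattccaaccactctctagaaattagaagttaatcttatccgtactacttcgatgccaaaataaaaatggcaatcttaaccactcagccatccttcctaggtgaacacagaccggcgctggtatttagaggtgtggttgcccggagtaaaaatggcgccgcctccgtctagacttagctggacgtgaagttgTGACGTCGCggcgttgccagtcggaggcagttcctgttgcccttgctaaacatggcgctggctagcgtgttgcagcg
Psmb6 (chr11:70525107-70525386, plus strand): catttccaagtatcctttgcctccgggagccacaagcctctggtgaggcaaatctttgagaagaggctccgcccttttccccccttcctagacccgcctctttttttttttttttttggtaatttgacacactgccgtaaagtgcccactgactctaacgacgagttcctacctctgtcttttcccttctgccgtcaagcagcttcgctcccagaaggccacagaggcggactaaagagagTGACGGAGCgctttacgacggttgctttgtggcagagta

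RefSeq promoters of 300 bases (250 before to 50 after the start site) were given for 38 of the 45 members, among them all 5 inducible genes. The antioxidant response element core stood in 0 of 5 inducible and 6 of 33 other members (Psmb5, Psmb6, Psmc6, Psmd12, Psmd9 and Psme4), against 12.4% of 32851 promoters. The interferon-stimulated core stood in 1 of 5 inducible members (Psme1) and 5 of 33 others, against 8.56% of all promoters. The gamma-activated site stood in 1 of 5 (Psmb8) and 1 of 33 (Psmd2), against 8.30%, and the CCAAT box in 1 of 5 (Psmb9) and 14 of 33, against 37.4%. These are matches of letters in one window, and sites outside it were not searched. Psmb9 and Tap1, the peptide transporter of the MHC class I pathway, are transcribed in opposite directions from start sites 226 bases apart, and their promoter windows share 275 bases. In the annotation, transcripts of both genes overlap by 212 bases on opposite strands, and Psmb8 begins 495 bases beyond Tap1. The antisense genes Gm20496 and Gm16156 overlap Psmb8 by 2139 bases and Psmb10 by 2710 bases. Whether the counting used strand is not given in the sources used here, so reads in such overlaps, which touch 23 of the 45 members, may have been assigned to either gene or dropped.

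Per length of the deposited gene models, Psmb6, Psma6 (an alpha ring subunit) and Psmb5 were the most abundant members, with a mean over the 23 libraries of 86.9, 81.4 and 72.9 FPKM. Of the inducible genes, Psme2 at 61.9 FPKM, Psme1 at 59.8, Psmb10 at 50.8 and Psmb8 at 39.3 lay within the range of the 31 constitutive 20S and 19S genes. Psmb9 at 11.1 lay close to the lowest of them, Psmd11 at 11.5. The order moved with time. Psmb6 ranked 10th of 45 at baseline in both genotypes and 1st at day 3 and at day 7 in both, while Psme1 ranked 2nd in MyS7KO and 1st in S7fl/fl libraries at baseline and 11th and 12th at day 3. The lowest members were the testis alpha subunit Psma8, at 0.719 FPKM, and Psmb11, with 0 to 8 counts a library. The gene models differ from single transcripts. With the length of the principal annotated transcript, an alternative chosen after seeing the data, Psmb6 was again 1st. Psmb5 was then 16th, and Psma7 was 6th in place of 20th. Psmb9 at 30.1 FPKM then stood above Psmd11 at 25.8. Only large gaps in level between genes are therefore read from this scale.

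**Figure D1:**
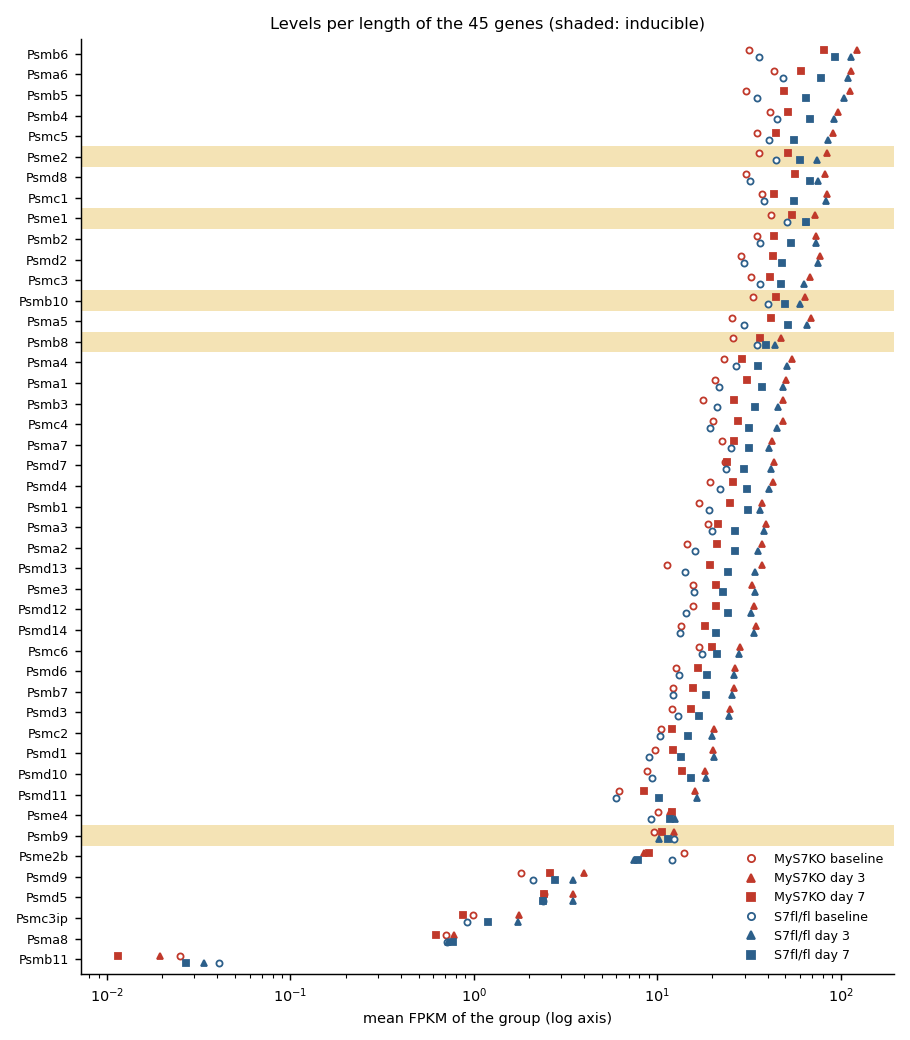
Mean FPKM of each group (log axis) for the 45 genes, ordered by their mean over 23 libraries, with MyS7KO in red and S7fl/fl in blue, open circles for baseline, triangles for day 3 and squares for day 7, and the inducible genes shaded. Day 3 triangles stand to the right for most genes, while Psmb9, Psme4 and Psme2b show little or no such shift.

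By day 3 after infarction, nearly all members had risen in both genotypes. In MyS7KO libraries 41 of 44 were called higher at day 3 than at baseline and 1 lower (edgeR adjusted p under 0.05), against a background of 30.7% of all genes tested called higher and 35.2% called lower. In S7fl/fl hearts 39 were called higher and 1 lower, with a background of 29.9% and 34.1%. The median log2 change was 1.10 over the members and -0.10 over all genes in MyS7KO, and 0.99 and -0.06 in S7fl/fl. The members together took 0.488% ± 0.0174 of the counts at day 3 and 0.255% ± 0.0208 at baseline in MyS7KO libraries (SD, n = 5 and 3), and 0.470% ± 0.0236 and 0.279% ± 0.0167 in S7fl/fl libraries (SD, n = 5 and 3). In such bulk samples, a change in the number of cells of a type and a change in RNA per cell cannot be told apart.

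All 31 constitutive subunits of the 20S core and the 19S base and lid were called higher at day 3 in both genotypes, with log2 changes of 0.74 to 1.97 in MyS7KO and 0.69 to 1.67 in S7fl/fl. The catalytic subunits Psmb6 and Psmb5 led. Psmb6, which cleaves after acidic residues, read 59.3, 52.4 and 66.2 CPM at baseline, 219, 231, 228, 219 and 262 CPM at day 3 and 131, 167, 140 and 172 CPM at day 7 in MyS7KO libraries. In S7fl/fl libraries Psmb6 read 58.3, 82.4 and 64.3 CPM at baseline, 201, 186, 212, 226 and 261 CPM at day 3 and 150, 193 and 193 CPM at day 7. In both genotypes every day 3 and every day 7 library stood above every baseline library. The log2 change at day 3 was 1.97 ± 0.14 (SE) for MyS7KO and 1.67 ± 0.14 for S7fl/fl (edgeR adjusted p = 7.49e-11 and 8.03e-10). Psmb5, which cleaves after hydrophobic residues, read 27.0, 24.5 and 30.7 CPM at baseline, 86.6, 100.3, 114, 99.3 and 110 CPM at day 3 and 33.3, 43.7, 47.3 and 53.3 CPM at day 7 in MyS7KO libraries. In S7fl/fl libraries it read 24.9, 38.9 and 31.6 CPM at baseline, 86.0, 88.1, 90.2, 94.996 and 118 CPM at day 3 and 55.9, 67.1 and 55.8 CPM at day 7. Its day 3 and baseline libraries did not overlap, with log2 changes of 1.89 ± 0.16 and 1.59 ± 0.15. Psmb7, the third constitutive catalytic subunit, which cleaves after basic residues, rose by 1.09 ± 0.11 in MyS7KO and 1.08 ± 0.11 in S7fl/fl.

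The lowest p-value at day 3 belonged to a 19S gene in both genotypes. Psmd2, the scaffold of the 19S base, read 299 to 318 CPM at day 3 and 108 to 119 CPM at baseline in MyS7KO libraries, and 291 to 324 and 112 to 133 CPM in S7fl/fl libraries (log2 1.44 ± 0.09 and 1.35 ± 0.08, edgeR adjusted p = 4.55e-12 and 1.30e-11). Its groups did not overlap and its spread within groups was narrow. Among the ATPases of the base, changes ran from 0.74 for Psmc6 to 1.38 for Psmc5 in MyS7KO, where Psmc4 rose by 1.28 ± 0.09 on the log2 scale. Of the 8 lid genes Psmd13 rose most in MyS7KO (1.72 ± 0.16) and Psmd11, whose product is a structural lid subunit, most in S7fl/fl (1.48 ± 0.10). The 7 alpha ring genes rose by 0.90 to 1.43 in MyS7KO and 0.70 to 1.18 in S7fl/fl, with Psma7 lowest in both. The 3 chaperones of 19S assembly rose less evenly, Psmd5 by 0.52 ± 0.12 and 0.54 ± 0.12, Psmd9 by 1.14 ± 0.16 and 0.73 ± 0.16, and Psmd10 by 1.05 ± 0.16 and 0.98 ± 0.16 in MyS7KO and S7fl/fl libraries.

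**Figure D2:**
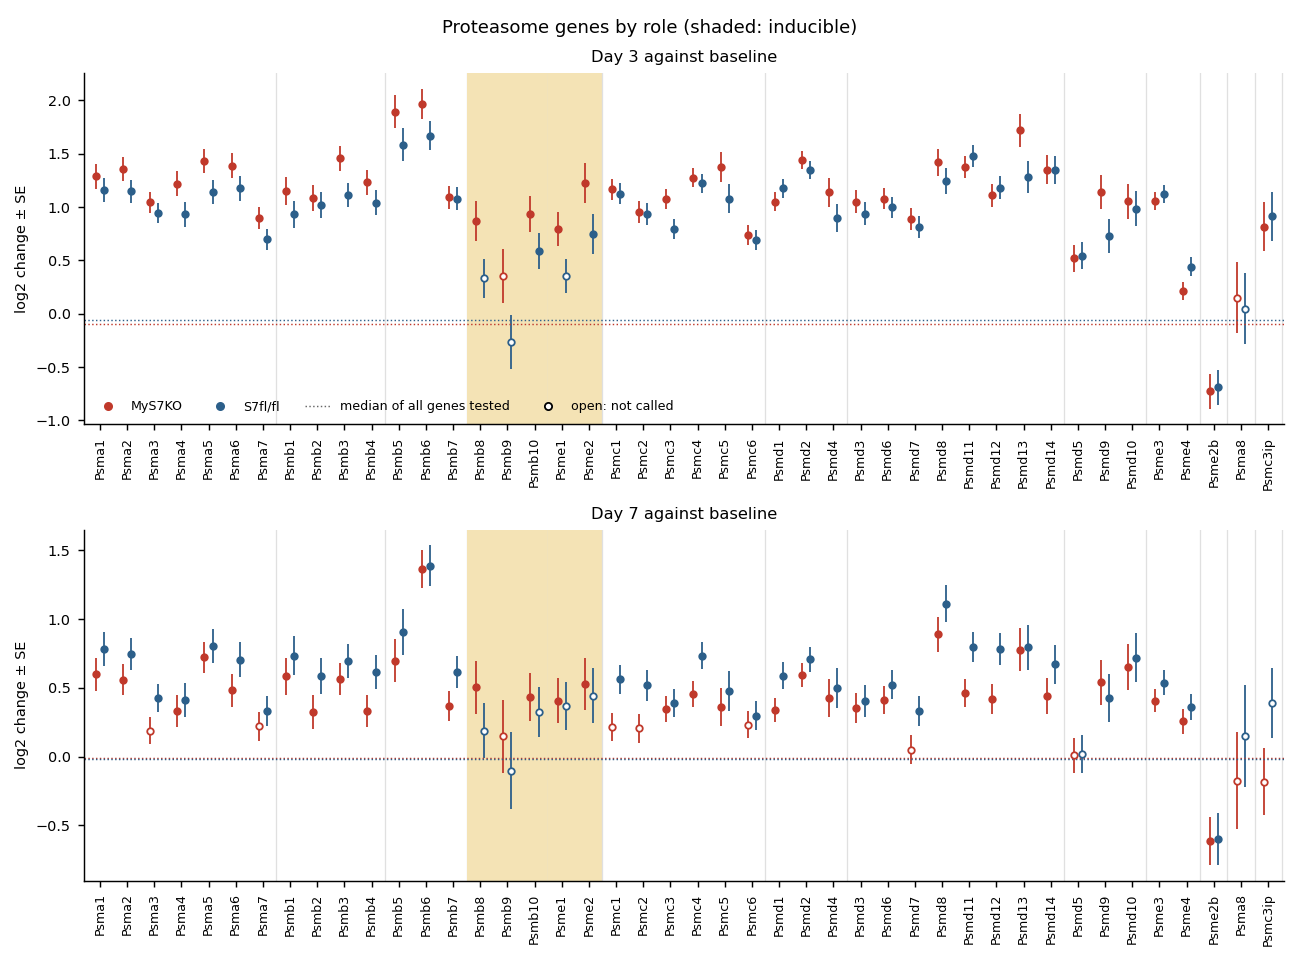
Log2 change ± SE of the 44 tested genes by role at day 3 and at day 7 against baseline, with MyS7KO in red and S7fl/fl in blue, filled points for calls, and dotted lines for the median of all genes tested. Psmb6 stands highest at both times, with Psmb5 next to it at day 3. Psme2b is below 0 at both times.

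Of the inducible genes, 4 of 5 were called higher at day 3 in MyS7KO and 2 of 5 in S7fl/fl. The background of all genes called higher was 30.7% and 29.9%, and the S7fl/fl count was near it. The median log2 change of the inducible genes was 0.87 and 0.35, against 1.14 and 1.04 for the other members. Psmb8 read 75.6, 63.2 and 74.7 CPM at baseline, 116, 150, 133, 117 and 132 CPM at day 3 and 75.6, 79.5, 122 and 127 CPM at day 7 in MyS7KO libraries. In S7fl/fl libraries it read 80.8, 130 and 78.9 CPM at baseline, 107, 103, 106, 145 and 146 CPM at day 3 and 105, 109 and 117 CPM at day 7. Day 3 and baseline did not overlap in MyS7KO (0.87 ± 0.19, edgeR adjusted p = 0.000352), whereas in S7fl/fl baseline replicate 2 stood among the day 3 libraries and the change did not pass (0.33 ± 0.18, adjusted p = 0.116). Psmb9 read 36.4, 30.5 and 39.1 CPM at baseline, 30.8, 57.0, 51.3, 39.0 and 47.7 CPM at day 3 and 27.6, 24.5, 50.9 and 53.3 CPM at day 7 in MyS7KO libraries. In S7fl/fl libraries it read 34.8, 62.2 and 40.4 CPM at baseline, 36.0, 29.2, 34.2, 41.4 and 49.4 CPM at day 3 and 39.9, 40.9 and 47.2 CPM at day 7. Psmb9 overlapped between all times in both genotypes, with log2 values at day 3 of 0.35 ± 0.25 and -0.27 ± 0.25 that did not pass (adjusted p = 0.227 and 0.364).

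Psmb10 rose at day 3 by 0.93 ± 0.17 in MyS7KO and 0.59 ± 0.17 in S7fl/fl, and Psme2, the beta chain of PA28, by 1.23 ± 0.19 and 0.75 ± 0.18. Psme1, its alpha chain, read 138 to 178 CPM at day 3 and 80.1 to 102 CPM at baseline in MyS7KO libraries (0.80 ± 0.16, edgeR adjusted p = 0.000146), and 130 to 170 and 93.1 to 144 CPM in S7fl/fl libraries (0.35 ± 0.16, adjusted p = 0.0537). Without S7fl/fl baseline replicate 2, the S7fl/fl changes were 0.61 for Psmb8 (adjusted p = 0.00773), 0.02 for Psmb9 (0.957) and 0.56 for Psme1 (0.00669). Psme1 also passed without S7fl/fl day 3 replicate 1 or 3 (0.39 each, adjusted p = 0.0441 and 0.0476). With sex as a covariate both Psmb8 (0.40) and Psme1 (0.39) passed in S7fl/fl (adjusted p = 0.0397 and 0.0357). The difference between the genotypes in these changes did not pass for any inducible gene (log2 0.35 to 0.62, edgeR adjusted p = 0.878 for each).

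**Figure D3:**
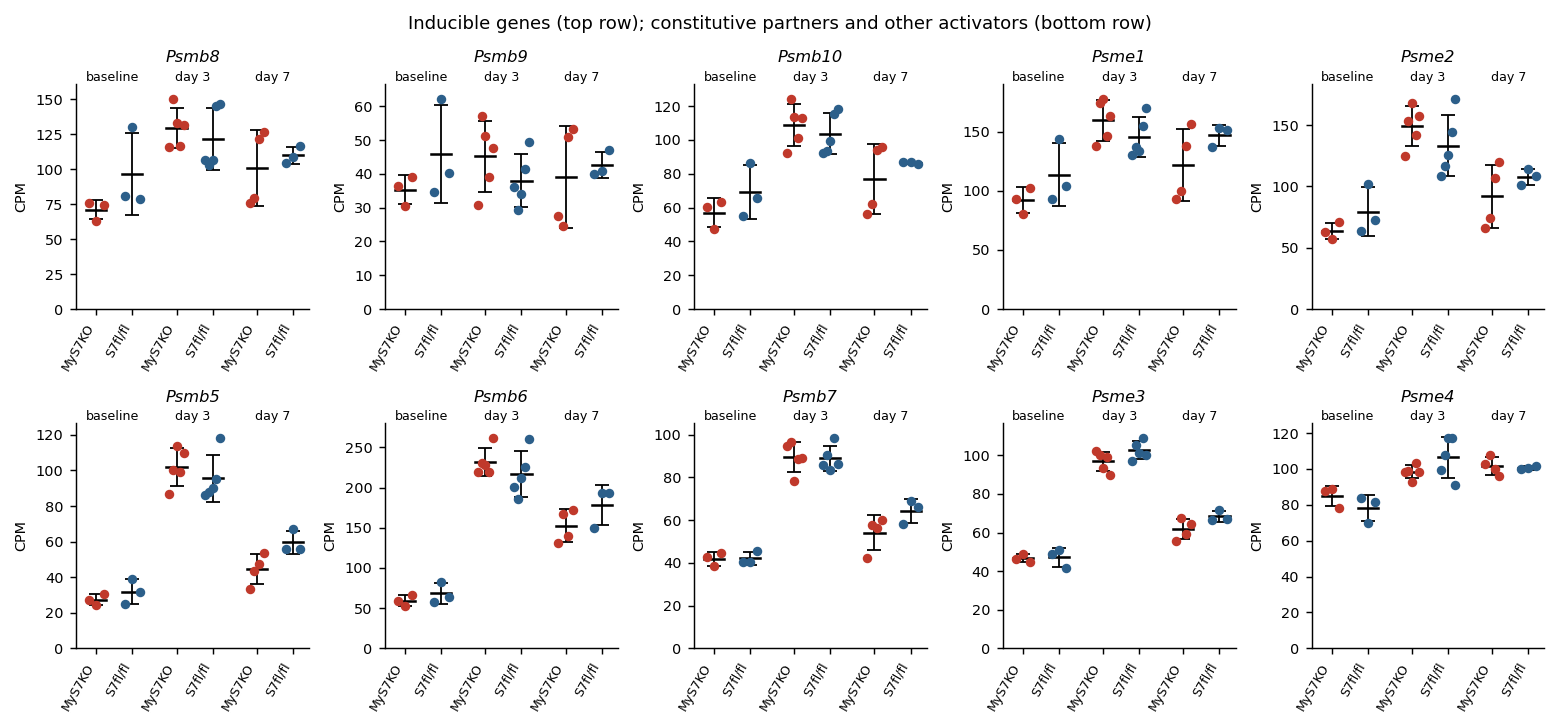
CPM of each library for the 5 inducible genes (top) and for Psmb5, Psmb6, Psmb7, Psme3 and Psme4 (bottom), by time and genotype, with MyS7KO in red, S7fl/fl in blue, and black lines for mean ± SD. Psmb5 and Psmb6 separate day 3 from baseline without overlap, Psmb9 does not, and the inducible genes of MyS7KO day 7 fall into a high and a low pair of libraries.

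The other activators of the core changed by different amounts. Psme3, which encodes the nuclear PA28 gamma, read 89.8 to 102 CPM at day 3 and 44.8 to 48.8 CPM at baseline in MyS7KO libraries, and 96.9 to 109 and 41.7 to 50.7 CPM in S7fl/fl libraries (log2 1.06 ± 0.08 and 1.12 ± 0.08, edgeR adjusted p = 4.16e-10 and 1.99e-10). Psme4, which encodes the activator PA200, changed by 0.21 ± 0.09 and 0.44 ± 0.09 (adjusted p = 0.0351 and 0.000127). Its call in MyS7KO was lost without baseline replicate 3 (0.16) or without day 3 replicate 2, 4 or 5 (0.21, 0.19 and 0.21). Psme2b was the only member called lower at day 3: it read 6.51 to 8.08 CPM at day 3 and 10.8 to 13.6 CPM at baseline in MyS7KO libraries, and 5.68 to 6.92 and 8.25 to 12.97 CPM in S7fl/fl libraries (-0.73 ± 0.16 and -0.69 ± 0.16). Psme2b is a near copy of Psme2 and shares 837 bases of one strand with another annotated gene, Gm12185, so its reads cannot be assigned with certainty. Psma8, at 10 to 39 counts a library, did not pass in any time comparison.

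Between day 3 and day 7 most levels came down. In MyS7KO libraries 39 of 44 members were called lower at day 7 than at day 3 and 0 higher, with a background of 19.1% and 20.5%, and a median log2 change of -0.71. Among S7fl/fl libraries 30 were called lower and 0 higher, with a background of 10.1% and 11.5%, and a median of -0.42. No member reached an unadjusted p under 0.05 in the higher direction in either genotype by edgeR, and DESeq2 also called 0 higher. All 31 constitutive 20S and 19S genes fell in MyS7KO and 28 of 31 in S7fl/fl, where Psmb6 (-0.28 ± 0.13), Psmb1 (-0.20 ± 0.12) and the lid gene Psmd8 (-0.13 ± 0.12) did not pass. Psmb5 fell most, by 1.20 ± 0.14 and 0.68 ± 0.15 on the log2 scale, and Psmd2 had the lowest p (-0.85 ± 0.08 and -0.64 ± 0.08, edgeR adjusted p = 2.57e-08 and 8.44e-06). Psmc1, an ATPase of the base, fell by 0.95 ± 0.09 in MyS7KO, and Psme3 by 0.65 ± 0.08 and 0.58 ± 0.08. Of the inducible genes, Psmb10, Psme1 and Psme2 fell in MyS7KO (-0.50 ± 0.15, -0.39 ± 0.14 and -0.70 ± 0.17) and none passed in S7fl/fl (-0.30 to 0.16). Psmb10 in MyS7KO was not called without day 7 replicate 1 (-0.38) or without the libraries with reads of both sexes (-0.43, adjusted p = 0.0603). Psme1 was not called without those libraries (-0.31, adjusted p = 0.151) nor without any one of day 3 replicates 2, 3 and 5 (-0.36, -0.35 and -0.38) and day 7 replicates 1 and 3 (-0.28 and -0.31). Psmb8 (-0.36 ± 0.17, adjusted p = 0.0900) was called lower without day 7 replicate 4 or 5 (-0.47 and -0.49) and with sex as a covariate (-0.48). Psme1 was also not called without the low-count filter or in a fit of only the groups compared (adjusted p = 0.0652 and 0.0563).

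At day 7 most constitutive genes were still above baseline. In MyS7KO libraries 33 of 44 members were called higher at day 7 than at baseline and 1 lower, with a background of 22.2% and 21.8%, and in S7fl/fl libraries 35 and 1, with a background of 24.8% and 25.4%. The median log2 change was 0.41 in MyS7KO and 0.53 in S7fl/fl, against -0.01 and -0.02 over all genes. Of the 31 constitutive genes 25 were called higher in MyS7KO and 31 in S7fl/fl. Psmb6 was highest, at 1.36 ± 0.14 and 1.39 ± 0.15 (edgeR adjusted p = 7.21e-08 and 9.66e-08), followed by Psmd8 at 0.89 ± 0.13 and 1.11 ± 0.13, while Psmb5 stood at 0.70 ± 0.16 and 0.91 ± 0.16. The gene called lower was again Psme2b (-0.61 ± 0.17 and -0.60 ± 0.19), a call lost in MyS7KO without baseline replicate 1 and in S7fl/fl without baseline replicate 1 or day 7 replicate 3 or with sex as a covariate.

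Of the inducible genes, 4 of 5 were called higher at day 7 than at baseline in MyS7KO and 0 of 5 in S7fl/fl. The background of all genes called higher by adjusted p was 22.2% and 24.8%. In S7fl/fl 2 of 5 had an unadjusted p under 0.05 by edgeR, and DESeq2 also called 0. The MyS7KO values were 0.50 ± 0.19 for Psmb8, 0.43 ± 0.17 for Psmb10, 0.41 ± 0.16 for Psme1 and 0.53 ± 0.19 for Psme2 (edgeR adjusted p = 0.0373, 0.0462, 0.0476 and 0.0286). All 4 calls were lost with sex as a covariate (adjusted p = 0.125 to 0.193), without the low-count filter (0.0669 to 0.0797) and in a fit of only the groups compared (0.0698 to 0.130). Psmb10 and Psme1 were also lost under DESeq2 (adjusted p = 0.0571 and 0.0621) and with RLE scaling (0.0526 and 0.0555). Leaving out MyS7KO baseline replicate 1 or 2 or day 7 replicate 4 or 5 ended each of the 4 calls. The values were then 0.57, 0.45, 0.40 and 0.38 for Psmb8, 0.50, 0.34, 0.32 and 0.31 for Psmb10, 0.44, 0.34, 0.34 and 0.26 for Psme1, and 0.54, 0.48, 0.45 and 0.37 for Psme2; Psmb8 was also lost without baseline replicate 3 (0.54). Psme1 also did not pass without the libraries with reads of both sexes (0.41, adjusted p = 0.0508). In S7fl/fl libraries the values were 0.19 ± 0.20 for Psmb8, -0.10 ± 0.28 for Psmb9, 0.32 ± 0.18 for Psmb10, 0.37 ± 0.17 for Psme1 and 0.44 ± 0.20 for Psme2 (edgeR adjusted p = 0.457, 0.785, 0.147, 0.0799 and 0.0720). The difference between the genotypes in these changes did not pass for any of the 5 (log2 0.04 to 0.32, edgeR adjusted p = 0.916 to 0.991). In S7fl/fl libraries, leaving out baseline replicate 2 brought Psmb10 (0.52), Psme1 (0.58) and Psme2 (0.66) past the test, and so did sex as a covariate for Psme1 (0.47) and Psme2 (0.57).

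The ratio of each inducible catalytic subunit to the constitutive one whose place it takes needs no scaling of libraries. It was compared over libraries with exact two-sided permutation tests, adjusted over 12 tests. Tests between times were stratified by genotype, and tests between genotypes by time. Counts are of whole genes, so the level of a ratio is not read, only its differences. Psmb8/Psmb5 was 1.17 to 1.50 at day 3 and 2.44 to 2.80 at baseline in MyS7KO libraries, and 1.17 to 1.53 and 2.49 to 3.35 in S7fl/fl libraries. The ratio was 2.20-fold lower at day 3 than at baseline (log2 -1.14, exact permutation p = 0.000319, the smallest this design allows, adjusted p = 0.00128), without overlap in either genotype. At day 7 it was 1.82 to 2.58 in MyS7KO and 1.63 to 2.09 in S7fl/fl libraries, above day 3 by 0.68 on the log2 scale (exact permutation adjusted p = 0.00128) and below baseline (log2 -0.46, exact permutation adjusted p = 0.0171). Day 7 and baseline overlapped in MyS7KO (log2 -0.21) and not in S7fl/fl (log2 -0.70).

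Psmb9/Psmb6 moved further. It was 0.140 to 0.247 at day 3 and 0.582 to 0.613 at baseline in MyS7KO libraries, and 0.157 to 0.189 and 0.597 to 0.755 in S7fl/fl libraries, a 3.44-fold lower ratio (log2 -1.78, exact permutation adjusted p = 0.00128). At day 7 it was still 2.59-fold lower than at baseline (log2 -1.37, exact permutation adjusted p = 0.00857), at 0.147 to 0.364 in MyS7KO and 0.212 to 0.266 in S7fl/fl libraries, with no overlap with baseline in either genotype. Its log2 difference of 0.41 between day 7 and day 3 passed (exact permutation adjusted p = 0.0389), but it was 0.31 to 0.40 and no longer passed on leaving out any one of 9 libraries, which were MyS7KO day 3 replicates 1, 4 and 5, S7fl/fl day 3 replicates 2 and 3, MyS7KO day 7 replicates 4 and 5, and S7fl/fl day 7 replicates 2 and 4. Psmb10/Psmb7 differed less. It was 1.24-fold lower at day 3 than at baseline (log2 -0.31, exact permutation adjusted p = 0.0230), with overlapping groups, and did not pass without S7fl/fl baseline replicate 2 (-0.21) or MyS7KO baseline replicate 1 or 3 (-0.30 each). The day 7 values of Psmb10/Psmb7 did not pass against day 3 (0.21, exact permutation adjusted p = 0.0789) or baseline (-0.11, adjusted p = 0.672); the first did pass on leaving out replicate 5 of S7fl/fl day 3 (0.24) or replicate 3 of MyS7KO day 7 (0.27).

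**Figure D4:**
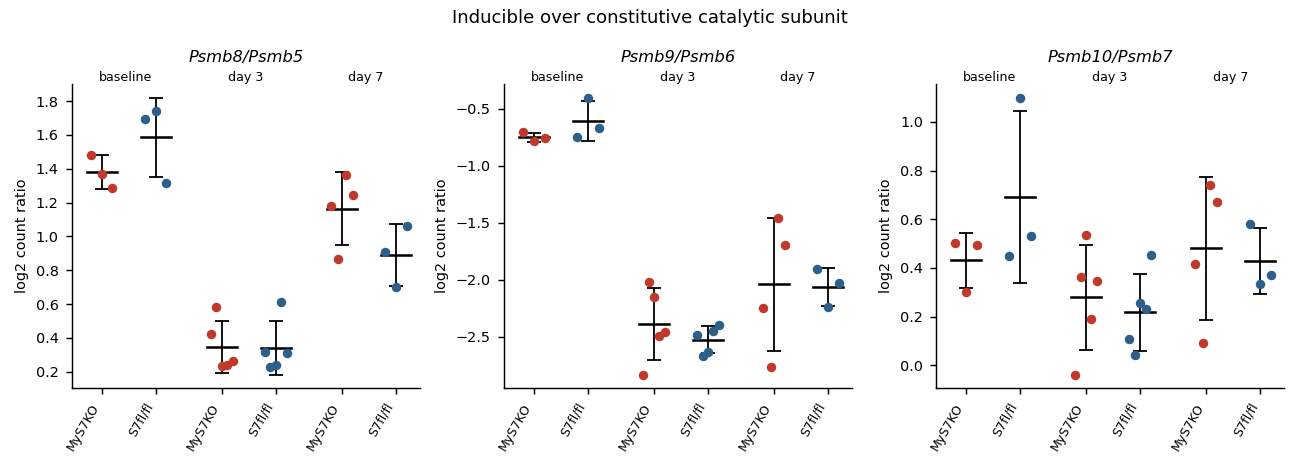
Log2 count ratio of the inducible to the constitutive catalytic subunit in each library, by time and genotype, with MyS7KO in red, S7fl/fl in blue, and black lines for mean ± SD. Psmb8/Psmb5 and Psmb9/Psmb6 are lower in all 10 day 3 libraries than in all 6 baseline libraries, while Psmb10/Psmb7 overlaps between times.

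Markers of other cells had different levels at these times. The summed level of 8 NK cell markers, a cell type that makes interferon gamma, was 7.85 to 17.7 CPM at day 3 and 42.4 to 74.9 CPM at baseline in MyS7KO libraries, and 9.44 to 15.9 and 47.5 to 121 CPM in S7fl/fl libraries. Ifng, one of them, was at most 3.68 CPM in any library. The 8 endothelial markers summed to 517 to 890 CPM at day 3 and 1268 to 2623 CPM at baseline in MyS7KO libraries, and to 369 to 857 and 1971 to 2668 CPM in S7fl/fl libraries. The 9 T cell markers summed to 6.97 to 11.8 CPM at day 3 and 16.9 to 26.6 CPM at baseline in MyS7KO libraries, and to 8.12 to 11.1 and 19.2 to 32.0 CPM in S7fl/fl libraries. Of this list, Cd3d, Cd3e, Cd3g, Cd8a and Cd8b1 were each below 1 CPM in all libraries. Trac reached 2.04 CPM, Cd5 4.63 CPM and Lck 6.90 CPM in their highest libraries. Cd4, which macrophages can also express, had the highest level of the list. The 7 B cell markers summed to 7.9999 to 12.8 CPM at day 3 and 12.1 to 20.7 CPM at baseline in MyS7KO libraries. Their sums were 7.74 to 11.01 and 16.4 to 29.985 CPM in S7fl/fl libraries. The 8 cardiomyocyte markers summed to 13.4 to 28.3 CPM at day 3 and 67.3 to 90.2 CPM at baseline in MyS7KO libraries, and to 11.2 to 24.7 and 85.6 to 110 CPM in S7fl/fl libraries. The T cell and cardiomyocyte sums did not overlap between these times in either genotype, and the B cell sums overlapped in MyS7KO. The 8 dendritic cell markers summed to 292 to 332 CPM at day 3 and 163 to 194 CPM at baseline in MyS7KO libraries, and to 260 to 304 and 168 to 216 CPM in S7fl/fl libraries. Itgax, which macrophages also express, was the highest of them in every library. Members of the dendritic cell list differed in direction. Itgax, Ccr7, Flt3 and Xcr1 were higher in every day 3 than in every baseline library. Zbtb46, Siglech and Clec9a were lower, Zbtb46 at 8.57 to 17.7 against 21.6 to 40.8 CPM over both genotypes. Cd209a overlapped between these times. The 10 neutrophil markers summed to 102 to 151 CPM at day 3 and 98.6 to 158 CPM at baseline in MyS7KO libraries, and to 124 to 213 and 118 to 129 CPM in S7fl/fl libraries. Csf3r, the receptor for granulocyte colony-stimulating factor, gave 67.7 to 157 CPM over the 23 libraries. Mmp8, a collagenase, read 31.8 to 88.8 CPM at day 3 and 1.02 to 3.21 CPM at baseline over both genotypes. Other members of the neutrophil list went the other way. Over the same libraries Ngp read 0 to 0.324 CPM at day 3 and 2.87 to 16.6 CPM at baseline. Ltf read 0.171 to 0.761 and 1.65 to 11.7 CPM, and Camp 0 to 0.254 and 0.785 to 4.70 CPM. S100a9 read 1.43 to 11.7 and 6.79 to 22.1 CPM, with overlap. The macrophage markers summed to 10416 to 12333 CPM at day 3 and 7685 to 10265 CPM at baseline in MyS7KO libraries, and to 13085 to 15886 and 9941 to 11068 CPM in S7fl/fl libraries. Cd14, Cd68, Fcgr1 and Itgam were higher in every day 3 than in every baseline library, Cd14 at 3733 to 5365 against 1218 to 2053 CPM. Csf1r and Mertk were lower, Csf1r at 1043 to 1408 against 2252 to 2999 CPM. Lyz2 at baseline read 2445 to 3349 CPM in MyS7KO and 5085 to 5747 CPM in S7fl/fl libraries. The 8 fibroblast markers summed to 1775 to 5088 CPM at day 7, 547 to 1221 CPM at day 3 and 505 to 1048 CPM at baseline in MyS7KO libraries, and to 1286 to 3401, 248 to 1091 and 711 to 1062 CPM in S7fl/fl libraries. Members of this list differed in direction at day 3. In MyS7KO libraries the proteoglycan gene Dcn read 15.3 to 66.2 CPM at day 3 and 233 to 400 CPM at baseline. Postn, which encodes a matricellular protein, read 62.5 to 120 and 23.8 to 41.9 CPM in the same libraries. The part of these cells in the changes of the proteasome genes was not tested.

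Libraries of one group differed more in the inducible genes than in the constitutive ones. The pooled within-group SD on the log2 scale was 0.228 to 0.365 for the inducible genes, with a median of 0.265 and Psmb9 highest, and 0.0854 to 0.214 for the 31 constitutive 20S and 19S genes, with a median of 0.141; the median over all genes tested was 0.246. In the MyS7KO day 7 group, the mean log2 level of the 5 inducible genes, each centred on its mean over 23 libraries, was -0.54 and -0.48 in replicates 1 and 3, and 0.17 and 0.26 in replicates 4 and 5. All 5 inducible genes were higher in replicates 4 and 5 than in replicates 1 and 3. Tap1 read 81.9, 65.4, 137 and 135 CPM in the same 4 libraries. At baseline, S7fl/fl replicate 2 had a mean of 0.22, against -0.48 and -0.32 in the other S7fl/fl libraries, and also the highest Tap1 (136 CPM, against 84.5 and 81.4). NK cell markers summed to 47.5 CPM in that library, the lowest of the 3, and to 24.1, 14.2, 21.7 and 16.7 CPM in the MyS7KO day 7 libraries, and endothelial markers to 696, 233, 1409 and 715 CPM.

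**Figure D5:**
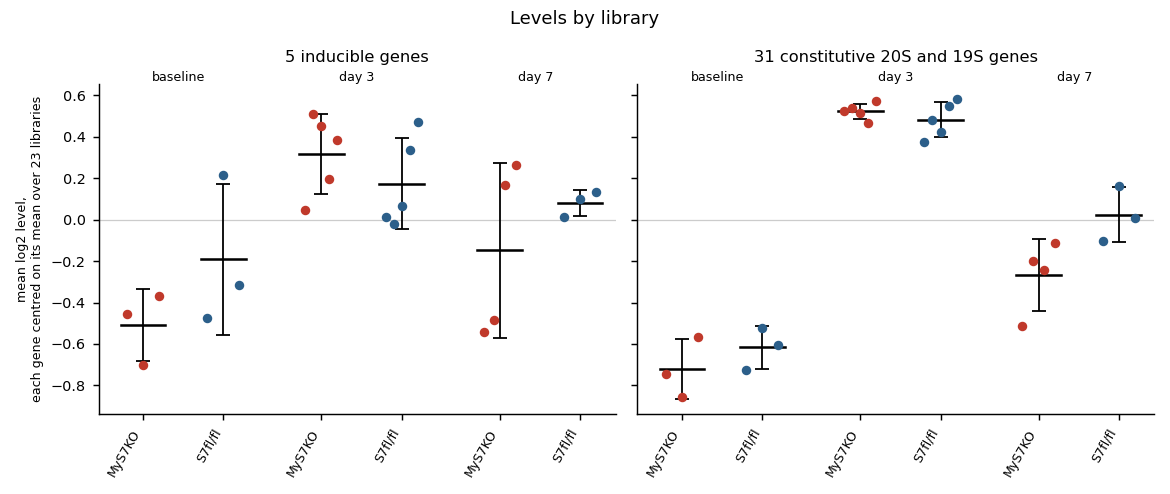
Mean log2 level per library of the 5 inducible genes (left) and the 31 constitutive 20S and 19S genes (right), each gene centred on its mean over 23 libraries, by time and genotype, with MyS7KO in red, S7fl/fl in blue, and black lines for mean ± SD. The inducible genes split the MyS7KO day 7 group into 2 high and 2 low libraries, and the constitutive genes separate day 3 from both other times.

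No member passed the test between genotypes at any time. In MyS7KO against S7fl/fl libraries edgeR called 0 of 44 members at baseline, day 3 and day 7, where 2, 0 and 24 members had an unadjusted p under 0.05, and DESeq2 also called 0 at each time. The background by adjusted p was 0.0121%, 0.0121% and 0.0181% of all genes called in either direction. It does not apply to the counts by unadjusted p, for which no share over all genes is given here. The members' median log2 difference was -0.11 at baseline, 0.04 at day 3 and -0.27 at day 7, against -0.03, -0.0021 and -0.01 over all genes. At day 7 all 24 low p-values belonged to constitutive 20S and 19S genes, with log2 differences between -0.42 for Psmb5 and -0.18 for Psmd2, and with edgeR adjusted p no lower than 0.214 for Psmc1. Those MyS7KO libraries were all female and the S7fl/fl libraries all male. The genotype terms of the changes over time passed for 0 members in each of the 3 intervals, with a background of 0% by adjusted p. By edgeR 4, 21 and 3 members had an unadjusted p under 0.05 for day 3 against baseline, day 7 against day 3 and day 7 against baseline. No share over all genes is given for these counts either. DESeq2 called 0 of the members in each interval. The ratios gave log2 differences of 0.03 for Psmb8/Psmb5, 0.00 for Psmb9/Psmb6 and -0.05 for Psmb10/Psmb7 between MyS7KO and S7fl/fl libraries over the 3 times (exact permutation adjusted p = 0.845, 0.972 and 0.801). Taken at baseline, day 3 and day 7 in turn, these differences were -0.21, 0.01 and 0.27 for Psmb8/Psmb5, -0.14, 0.14 and 0.02 for Psmb9/Psmb6, and -0.26, 0.06 and 0.05 for Psmb10/Psmb7. The genotypes overlapped each time, and the value over the 3 times averages differences of both signs.

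Genes that build and regulate the proteasome followed the constitutive subunits in part. Of 25 tested, 17 were called higher and 4 lower at day 3 than at baseline in MyS7KO and 19 and 3 in S7fl/fl (median log2 0.71 and 0.64). The background was 30.7% higher and 35.2% lower in MyS7KO and 29.9% and 34.1% in S7fl/fl. At day 7 against day 3, 16 were called lower in MyS7KO and 10 in S7fl/fl, with a background of 19.1% and 10.1%. Pomp, the chaperone of 20S core maturation, read 156 ± 17.9 CPM at day 3 and 62.1 ± 11.6 CPM at baseline in MyS7KO libraries (SD, n = 5 and 3), and 140 ± 20.1 and 75.9 ± 13.1 CPM in S7fl/fl libraries (log2 1.33 ± 0.16 and 0.88 ± 0.16). The segregase gene Vcp and the 19S deubiquitinase gene Uchl5 rose by 1.17 ± 0.09 and 1.41 ± 0.11 in MyS7KO and by 1.09 ± 0.09 and 1.32 ± 0.11 in S7fl/fl. Nfe2l1, which encodes the factor that raises proteasome gene transcription when proteasomes are inhibited, fell at day 3 against baseline by 0.30 ± 0.09 in MyS7KO and 0.40 ± 0.09 in S7fl/fl on the log2 scale. Nfe2l2, a factor that binds antioxidant response elements, was called higher at day 7 than at baseline (0.68 ± 0.11 in MyS7KO and 0.89 ± 0.12 in S7fl/fl). At day 3 its levels overlapped with baseline. It read 405 to 467 CPM at baseline, 415 to 483 CPM at day 3 and 601 to 770 CPM at day 7 in MyS7KO libraries. In S7fl/fl libraries it read 346 to 398, 384 to 481 and 594 to 729 CPM.

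Of 18 genes of the MHC class I pathway, which the immunoproteasome feeds, 5 were called higher and 4 lower at day 3 than at baseline in MyS7KO, and 4 and 7 in S7fl/fl, with a median log2 of -0.05 and -0.28, against -0.10 and -0.06 over all genes. These are shares of 27.8% higher and 22.2% lower in MyS7KO and 22.2% and 38.9% in S7fl/fl. They are near the background of 30.7% and 35.2% in MyS7KO and 29.9% and 34.1% in S7fl/fl. The genes with the lowest p were chaperones of the endoplasmic reticulum that serve many glycoproteins, Pdia3 (1.35 ± 0.12 and 1.25 ± 0.12), Calr (1.28 ± 0.13 and 1.27 ± 0.13) and Canx (0.95 ± 0.11 and 0.99 ± 0.11). Tap1, the neighbour of Psmb9, had values of 0.13 ± 0.24 and -0.23 ± 0.23, and the class I light chain B2m -0.06 ± 0.17 and -0.09 ± 0.17, none of which passed. Other genes of the list differed in direction. At day 3 and baseline, Tapbp had means of 265 and 172 CPM in MyS7KO and 243 and 207 CPM in S7fl/fl libraries. H2-K1 had means of 1551 and 1665 CPM in MyS7KO and 1470 and 1948 CPM in S7fl/fl libraries. H2-Q6, H2-Q7 and H2-Q4 had lower means at day 3, given in the same order. H2-Q6 had means of 41.0 and 194 CPM in MyS7KO and 42.5 and 265 CPM in S7fl/fl libraries. The means of H2-Q7 were 44.6 and 147 CPM and 51.3 and 162 CPM, and those of H2-Q4 154 and 334 CPM and 142 and 410 CPM. Of 26 interferon signalling genes, 9 were called higher and 8 lower at day 3 than at baseline in MyS7KO, and 6 and 9 in S7fl/fl (median log2 -0.04 and -0.09). The shares were 34.6% and 30.8% in MyS7KO and 23.1% and 34.6% in S7fl/fl, also near the background. Members of this list differed in direction. Irf7 read 108 to 162 CPM at day 3 and 42.4 to 49.9 CPM at baseline in MyS7KO libraries. In S7fl/fl libraries it read 116 to 232 and 47.8 to 111 CPM. Ifngr2 read 116 to 161 and 59.1 to 96.5 CPM in MyS7KO libraries, and 123 to 161 and 61.5 to 79.05 CPM in S7fl/fl libraries. Irf1, a factor that activates immunoproteasome genes, read 111 ± 16.4 CPM at day 3 and 467 ± 78.0 CPM at baseline in MyS7KO libraries (SD, n = 5 and 3), and 103 ± 17.2 and 440 ± 77.6 CPM in S7fl/fl libraries, and fell by 2.08 ± 0.21 and 2.09 ± 0.21 on the log2 scale (edgeR adjusted p = 2.62e-08 in each). At day 7, 10 of the 26 were called higher than at day 3 and 0 lower in MyS7KO, and 6 and 0 in S7fl/fl, Irf1 among them (0.92 ± 0.19 and 0.92 ± 0.21). The background was 20.5% higher and 19.1% lower in MyS7KO and 11.5% and 10.1% in S7fl/fl. All 24 cell cycle genes, taken as a measure of proliferating cells, were called higher at day 3 than at baseline in both genotypes (median log2 1.52 and 1.25), and 22 and 9 were called lower at day 7 than at day 3 in MyS7KO and S7fl/fl, against the same backgrounds. Their part in the changes of the proteasome genes was not tested.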

How the data were processed

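Poly(A) RNA-seq counts and FPKM of 23 libraries were used as the authors deposited them. Reads were processed with TopHat2 2.0.9, HTSeq 0.6.1 and Cufflinks 2.1.1, per the submitters' processing notes; the notes name the builds mm10 and GRCm38.p6, and whether counting used strand is not given in the sources used here. The deposited FPKM equalled the deposited count divided by the gene model's length and by 1 constant per library, so they add no measurement and served only to set levels between genes. Raw counts were scaled by TMM and fitted over all 6 groups with edgeR 4.0.16 (robust quasi-likelihood test, filterByExpr), with Benjamini-Hochberg adjustment over 16545 genes and calls at an adjusted p under 0.05; CPM use the TMM library sizes. The procedure was tested on simulated data. Count ratios were compared with exact permutation tests within strata. Alternatives were DESeq2 1.42.0, RLE scaling, no low-count filter, a replicate block, sex as a covariate, fits of only the groups compared, and leaving out libraries. The members and lists were chosen with earlier results of these data known. Named were the inducible genes, their constitutive partners, Psme3, Psme4, the 3 lowest p-values per time comparison and a few list genes; extremes within a role and members that missed a test were named after their values were seen. Libraries held 15479400 to 23884900 counts.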

Additional observations from a re-analysis of the deposited data

Results flagged for a closer look

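Of 39 tests for a sample far from the others of its group, 3 passed Dixon's criterion, which chance passes in about 1 of 20 groups. Psmb5 read 118 CPM in S7fl/fl day 3 replicate 5, against 94.996 CPM in the next library of the group. Psmb6 read 262 CPM in MyS7KO day 3 replicate 5, against 231 CPM in the next. The count ratio Psmb8/Psmb5 was 1.53 in S7fl/fl day 3 replicate 4, which held reads of both sexes, against 1.24 in the next.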

How the results depend on the processing

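The counts of members called stayed within 1.5 times under RLE scaling, no low-count filter, DESeq2, the replicate block, only the groups compared and without the libraries of both sexes (18 of 18 each), and in 17 of 18 with sex as a covariate, where 0 members were called lower in S7fl/fl at day 7 against baseline. With 1 library left out that count ranged between 0 and 1 in either genotype. In MyS7KO at day 7 against baseline, 33 members were called higher in the main fit. The number was 22 in a fit of only the groups compared, 23 with sex as a covariate and 25 with the replicate block. With 1 library left out it ranged from 23 to 37. In MyS7KO at day 7 against day 3, 39 members were called lower in the main fit and 36 without the libraries of both sexes. Deviations of same-numbered libraries had r between -0.352 and 0.272 in 10 pairs, with 6 above 0.1 and 4 correlating best with their own number; since not every pair was above 0.1, the numbers were not taken to pair the libraries. With the replicate block, Psmb8, Psmb10, Psme1 and Psme2 in MyS7KO at day 7 against baseline were not called (adjusted p = 0.122, 0.148, 0.145 and 0.0741). The block as sign flips gave Psmb8/Psmb5 -1.15 for day 3 against baseline and 0.728 for day 7 against day 3. It gave -0.544 for day 7 against baseline and -0.0116 between genotypes. Psmb9/Psmb6 was -1.79, 0.476 and -1.66 over the same intervals, and Psmb10/Psmb7 was -0.352 for day 3 against baseline. The sign-flip adjusted p was 0.125 to 0.167 for the intervals. Only same-numbered pairs of libraries enter this test. For day 7 against baseline, so few pairs cannot give a sign-flip p under 0.05. For the other intervals they leave little room to pass after adjustment. No conclusion on the ratios is drawn from these adjusted p. Psmb9, never called, changed sign at day 7 against baseline in MyS7KO under the block (-0.0810) and with sex (-0.0407). In S7fl/fl it did so with sex (0.0889). Without the libraries of both sexes, Psme4 at day 7 against day 3 in MyS7KO went from 0.0447 to -0.000570. The genotype difference of Psmb9/Psmb6 went from 0.00475 to -0.0561 without them. The cause of these changes was not tested. With 1 library left out, Psmb9 ranged between -0.377 and 0.0196 at day 3 against baseline in S7fl/fl, and at day 7 against baseline between -0.0395 and 0.315 in MyS7KO and between -0.210 and 0.184 in S7fl/fl, and Psme1 at day 7 against day 3 in S7fl/fl between -0.0202 and 0.0813. Genotype differences of the ratios ranged between -0.0193 and 0.0587 for Psmb8/Psmb5, -0.0600 and 0.0854 for Psmb9/Psmb6 and -0.0894 and 0.0192 for Psmb10/Psmb7. Psmb9/Psmb6 at day 7 against day 3 ranged between 0.310 and 0.528, and Psmb10/Psmb7 between -0.376 and -0.213 at day 3 against baseline and 0.163 and 0.271 at day 7 against day 3. Groups of 3 to 5 libraries, sex at day 7 and unstated strand limit these results.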
